A study of Mus musculus with 19 samples.

Results

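A set of 8 enzymes of cholesterol synthesis, out of the 53379 gene rows of the deposited table, was followed across 19 single mouse embryos: Hmgcs1, Idi1, Fdps, Fdft1, Sqle, Lss, Cyp51 and Dhcr7. They were taken by gene symbol, each symbol matched 1 row, and the rule itself holds no measured value, although the set was proposed with earlier results of these data known. All 8 are synthesis enzymes and none takes up cholesterol, so uptake was described only through a separate list of other genes. Embryos came from in vitro fertilisation of B6D2F1 mice, were cultured in KSOM at 37 degrees C under 5% CO2, and were collected singly as morulae or blastocysts 96 hours after insemination. Parents were heterozygous for a deletion in Alyref (Alyref+/- x Alyref+/-), which encodes an mRNA export adaptor, heterozygous for a deletion in Gabpb1 (Gabpb1+/- x Gabpb1+/-), which encodes a subunit of the transcription factor GABP, or wild type (WT). From the Alyref parents came 2 KO morulae (Alyref-/-), 3 morulae that were not KO and 3 blastocysts that were not KO. From the Gabpb1 parents came 3 morulae labelled KO (Gabpb1-/-), with 2 non-KO morulae and 3 blastocysts beside them, and WT parents gave 3 blastocysts. The submitters called an embryo KO when its library had no reads over the deleted region. The other embryos of the crosses are a mixture of heterozygous and WT embryos that the labels do not separate, and no blastocyst was labelled KO.

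Cholesterol is built from acetyl-CoA through mevalonate, isoprenoid units, squalene and lanosterol, and a preimplantation embryo in a defined medium can draw on synthesis and on stored lipid. Hmgcs1 makes the precursor of mevalonate. Idi1 and Fdps make and join isoprenoid units, Fdft1 makes squalene, Sqle and Lss turn squalene into lanosterol, and Cyp51 and Dhcr7 act on the sterol ring, Dhcr7 in the last step to cholesterol. Transcription of these genes is driven by SREBP proteins, above all the product of Srebf2, which Scap carries to the Golgi for cleavage by the Mbtps1 and Mbtps2 proteases. Insig1 and Insig2 hold Scap back when sterols are plentiful.

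The promoters of such genes classically hold a sterol regulatory element for SREBP and a CCAAT box for NF-Y, and 4 stretches are shown for what the members share in sequence outside their expression values. They are RefSeq promoter entries on GRCm38.p6, which cover 5 of the 8 members (Hmgcs1, Idi1, Lss, Cyp51 and Dhcr7). Each is written 5′ to 3′ on the strand of the gene, and capitals mark a sterol regulatory element (TCACNCCAC) or a CCAAT box, which reads ATTGG on the opposite strand. The first 2 lines give the bases upstream of the deposited gene model, and the last 2 a short window around the CCAAT box nearest the start. Both windows, of Idi1 and Cyp51, lie upstream of the RefSeq start but inside the deposited gene model.
Hmgcs1, chr13:119690101-119690350, + strand: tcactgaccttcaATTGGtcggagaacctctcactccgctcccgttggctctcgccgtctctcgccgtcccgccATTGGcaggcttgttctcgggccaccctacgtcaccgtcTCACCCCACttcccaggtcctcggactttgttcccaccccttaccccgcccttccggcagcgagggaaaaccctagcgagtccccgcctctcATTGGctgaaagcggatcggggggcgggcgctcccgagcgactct
Lss, chr10:76531355-76531587, + strand: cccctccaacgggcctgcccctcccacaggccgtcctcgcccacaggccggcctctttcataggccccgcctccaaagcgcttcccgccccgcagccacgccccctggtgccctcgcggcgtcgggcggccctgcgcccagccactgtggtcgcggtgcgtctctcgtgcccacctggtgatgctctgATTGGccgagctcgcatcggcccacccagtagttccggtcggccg
Idi1, chr13:8885581-8885605, + strand: tccaaggtgccATTGGctggcgacc
Cyp51, chr5:4104712-4104736, - strand: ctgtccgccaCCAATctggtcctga
Both strands of the 250 bases before each start were searched. The 5 members have 7 entries, and shares over all promoters are likewise per entry. The sterol regulatory element, in the 1 spelling searched, was found in 1 of the 7 entries, that of Hmgcs1, and in 1.05% of 32841 promoters. Other spellings of it were not searched. A CCAAT box was found in 5 of the 7 entries, at least 1 for each of the 5 members, and in 33.9% of all promoters. For Dhcr7 it lay only in the entry at chr7:143829964-143830213, inside the deposited gene model, and not in its other entries. The GABP-type ETS motif CCGGAAG was found in 2 of the 7 entries, of Hmgcs1 and Dhcr7, and in 6.91% of all promoters. None of these matches overlapped another in the members' entries. A match is a description of the letters and shows no binding.

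All 8 genes passed the filter on low values (FPKM, fragments per kilobase of exon scaled to depth, of 1 or more in at least 2 embryos), as did 18410 of 53379 gene rows. Levels are counts per 1000000 gene counts (CPM) made from the deposited counts. Gene counts per embryo ranged from about 7486000 to 31536000 with a median of 13634000, and ERCC spike-in RNA took 0.501% to 1.95%. Markers of cumulus cells, which surround the oocyte, summed to between 0 and 0.376 FPKM. Trophectoderm markers summed to between 175 and 2465 FPKM in morulae and between 2375 and 4224 FPKM in blastocysts. Of the trophectoderm markers Krt18 and Krt8 reached the highest counts in an embryo, 127655 and 64639, with Gata3 next at 7550. Alyref stood at 47.8 and 58.5 CPM in the 2 Alyref KO morulae and at 161.5 to 291.3 CPM in their 3 non-KO siblings. Gabpb1 stood at 78.2, 259.4 and 150.5 CPM in the morulae labelled Gabpb1 KO and at 93.8 and 83.3 CPM in their non-KO siblings, so counts over the whole gene did not set those 3 embryos apart and directions below rest on the labels. Where counts rise or fall, fewer cells of a type and less RNA per cell cannot be told apart. Nothing in the labels gives a batch or date, so a batch that went with a cross cannot be told apart from it.

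The 8 genes lie on 7 chromosomes of mm10, with coordinates as deposited. Hmgcs1 (ENSMUSG00000093930.2) is at 13:119690379-119708260 and Idi1 (ENSMUSG00000058258.14) at 13:8885501-8892451. Fdps (ENSMUSG00000059743.12) is at 3:89093588-89101959, Fdft1 (ENSMUSG00000021273.10) at 14:63145150-63179578 and Sqle (ENSMUSG00000022351.14) at 15:59315077-59331192. Lss (ENSMUSG00000033105.12) is at 10:76531588-76557138, Cyp51 (ENSMUSG00000001467.5) at 5:4081145-4104746 and Dhcr7 (ENSMUSG00000058454.15) at 7:143823145-143848410. Values are for whole exonic gene models. Counts of 3 genes are uncertain because of near-identical sequence elsewhere. Idi1 has 4 processed pseudogenes at 90% identity or more over at least 300 bases, whose counts came to 32.0% of its own. Fdps has 5, at 57.6% of its counts, and it also shares 1124 exonic bases on the same strand with Gm43738. The counts of Gm43738 came to 98.4% of those of Fdps. Fdft1 has 1, Gm6781, at 15.7%, and shares 774 exonic bases with Ctsb on the opposite strand. Ctsb had 216% of the counts of Fdft1. Cyp51 shares 166 exonic bases with Akap9, also on the opposite strand, which had 114% of the counts of Cyp51. Since the strand setting of the counting is not given in the sources used here, reads of opposite-strand neighbours cannot be told apart for Hmgcs1, Idi1, Fdft1, Lss and Cyp51. Sqle and Dhcr7 had no such copy or neighbour.

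Compared per length, Fdft1 was the highest of the 8, with a median over embryos of 23.6 FPKM, and Lss the lowest, with 1.84 FPKM. Between them lay Fdps at 13.5, Idi1 at 10.7, Hmgcs1 at 9.49, Dhcr7 at 5.76, Sqle at 5.00 and Cyp51 at 2.88 FPKM. Across embryos in CPM, Cyp51 had the widest range, from 3.30 in an Alyref cross non-KO morula to 65.6 in a WT blastocyst, which is 19.9-fold. Dhcr7 had the narrowest, from 19.4 to 53.2 CPM, which is 2.74-fold. Ordered by mean CPM, Gabpb1 cross blastocysts were highest of the 7 groups for 6 of the genes, Alyref cross blastocysts for Hmgcs1 and Alyref cross non-KO morulae for Fdft1. Neighbours in that order overlapped in 45 of 48 pairs over the 8 genes, and the plot of levels by group shows how wide the groups are.

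**Figure D1:**
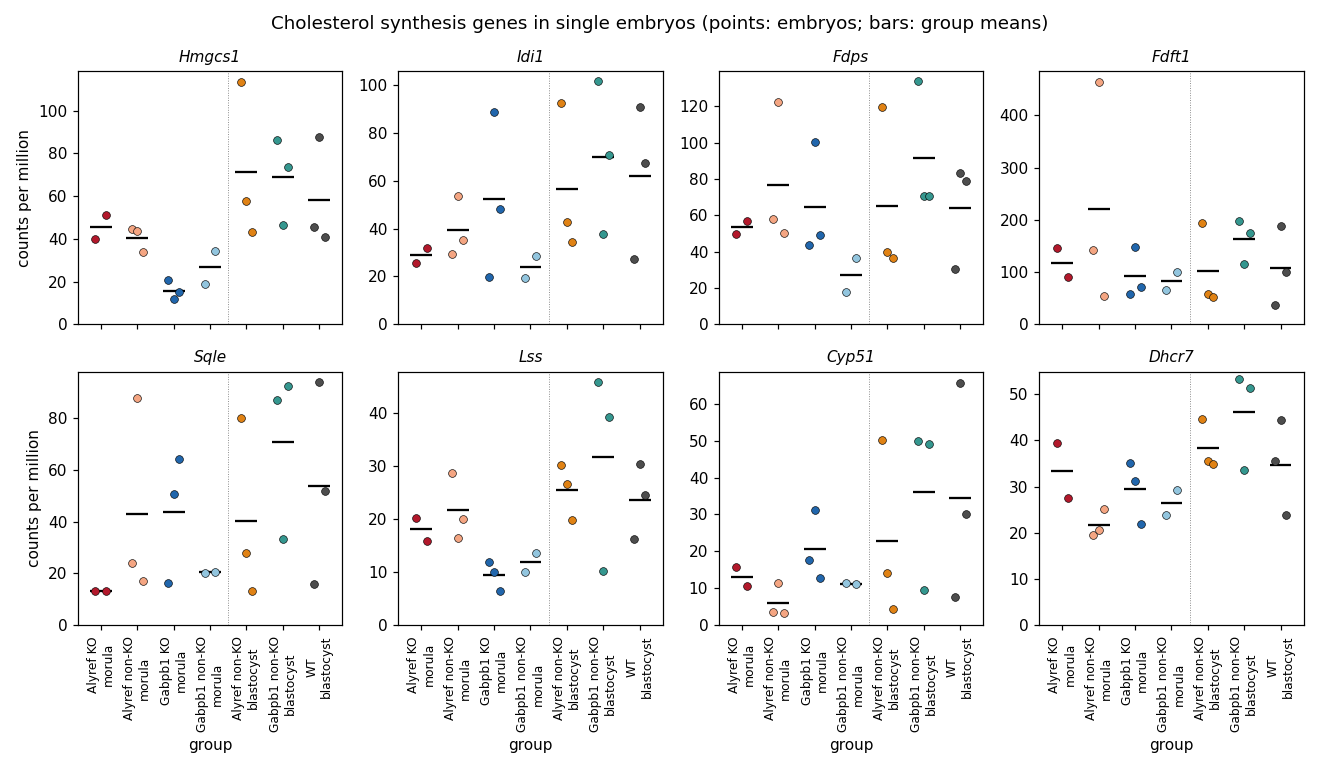
CPM (y axis, linear from 0) of the 8 genes in the 7 groups (x axis). Each point is 1 embryo and each bar a group mean; a dotted line parts morulae from blastocysts. In the Alyref cross non-KO morulae 1 embryo lies far above the other 2 for Fdft1 (464 CPM) and Sqle (87.7 CPM), while Dhcr7 stays between 19.4 and 53.2 CPM throughout.

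In the Alyref cross none of the 8 genes differed between KO and non-KO morulae past an adjusted p of 0.05. Here and below, the test is edgeR's quasi-likelihood test with Benjamini-Hochberg adjustment over 18410 genes, which called 0.228% of all genes in this comparison. At an unadjusted p under 0.05 it passed 0 of 8, against 12.1% of all genes, and DESeq2 and limma voom also called 0 of 8. Of all genes tested DESeq2 called 193 higher and 309 lower, and limma voom 481 and 360. The estimates split, with 3 above and 5 below 0, where 46.5% of all genes were above 0, and a median log2 fold change of -0.36, against -0.037 over all genes tested. Sqle, the enzyme that adds oxygen to squalene, stood at 13.3 and 13.1 CPM in the KO morulae and at 24.2, 87.7 and 17.0 CPM in the non-KO morulae. Both KO values lay below every non-KO value, and the log2 difference was -1.70 (SE 0.90, adjusted p 0.479), or -0.62 without non-KO morula 2. Dhcr7 lay at 39.3 and 27.4 CPM in KO and at 19.4, 20.6 and 25.2 CPM in non-KO morulae. Here both KO values were above every non-KO value, with a log2 difference of 0.62 (SE 0.30, adjusted p 0.432). These were 2 of 8 genes whose groups did not overlap, where 24.9% of all genes did not. For Fdft1 the KO morulae had 145.7 and 90.2 CPM and the non-KO morulae 142.4, 464 and 53.8 CPM, so the groups overlapped. Its log2 difference of -0.90 (SE 0.81) became 0.29 without non-KO morula 2, the embryo at 464 CPM. The remaining differences ran from -0.52 for Fdps to 1.12 for Cyp51, with SEs of 0.43 to 0.94, and Cyp51 came to 1.94 without non-KO morula 2.

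Among morulae of the Gabpb1 cross, those labelled KO did not differ from non-KO embryos in any of the 8 genes past the threshold, in a comparison where 1.65% of all genes were called. At an unadjusted p under 0.05 the quasi-likelihood test again passed 0 of 8, where it passed 18.9% of all genes, and DESeq2 and limma voom called 0 of 8. Of all genes DESeq2 called 479 higher and 805 lower, and limma voom 132 and 331. Fdps, which joins isoprenoid units into farnesyl diphosphate, had 43.6, 100.5 and 49.4 CPM in the labelled KO embryos and 17.9 and 36.3 CPM in the others. The 2 groups did not overlap, and the log2 difference was 1.25 (SE 0.62, adjusted p 0.289), or 1.85 without non-KO morula 2. Cyp51 likewise did not overlap, with 17.7, 31.3 and 12.7 CPM against 11.5 and 11.0 CPM and a log2 difference of 0.87 (SE 0.96). That made 2 of 8 genes without overlap, beside 32.2% of all genes. Hmgcs1 went the other way, with 20.7, 11.8 and 15.1 CPM in the labelled KO morulae and 19.1 and 34.3 CPM in the others. These groups overlapped, and the log2 difference was -0.75 (SE 0.43, adjusted p 0.361). Idi1 differed by 1.12 (SE 0.63), or 0.50 without labelled KO morula 2, and Sqle by 1.09 (SE 0.87), while Fdft1, Lss and Dhcr7 lay within 0.33 of 0. Over the 8 genes the median log2 difference was 0.51, against 0.058 over all genes tested, with 6 above and 2 below 0 and 52.9% of all genes above 0.

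Whether the effects differ between the crosses was tested as a contrast of its own, and 0 of 8 genes passed it, in a contrast that called 0.907% of all genes. DESeq2 and limma voom also called 0 of 8. Of all genes DESeq2 called 412 higher and 482 lower, and limma voom 293 and 480. At an unadjusted p under 0.05 the edgeR contrast passed 1 of 8 and 16.8% of all genes. The 1 gene was Sqle (p 0.0406), whose Gabpb1 effect minus its Alyref effect was 2.79 on the log2 scale (SE 1.25, adjusted p 0.271). This estimate was 1.68 without Alyref cross non-KO morula 2. The next largest were Fdps at 1.77 (SE 0.86, adjusted p 0.31) and Idi1 at 1.58 (SE 0.88, adjusted p 0.378), both of which carry the pseudogene uncertainty above.

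**Figure D2:**
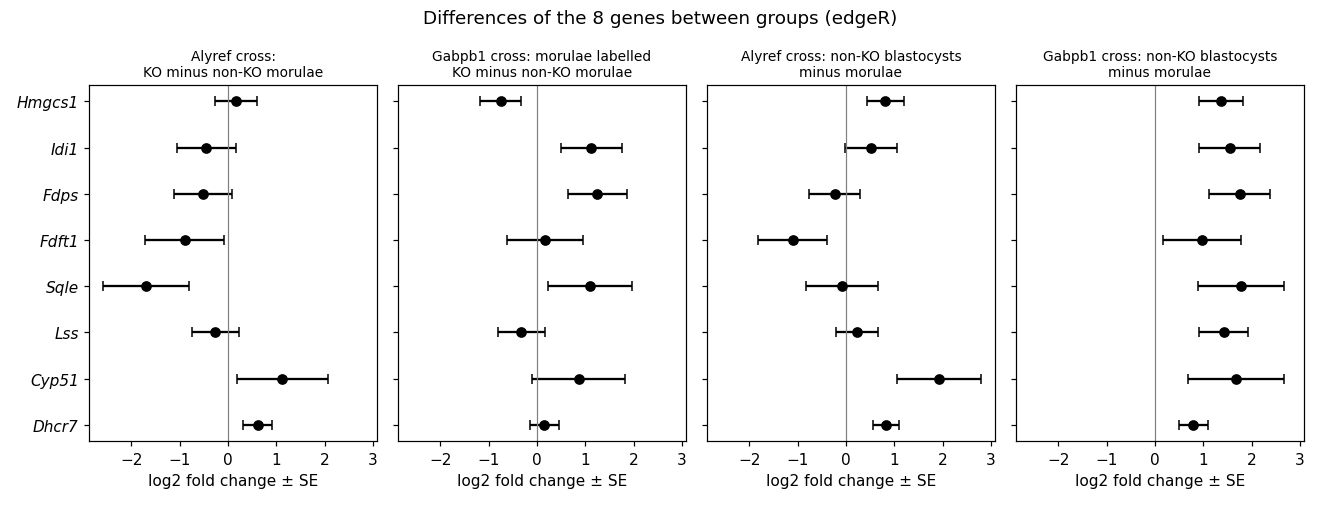
Log2 fold change (x axis, points) with SE (bars) of the 8 genes (y axis) in 4 comparisons from the fit over all embryos. Points fall on both sides of 0 in the first 3 panels, and all 8 lie above 0, between 0.80 and 1.79, for Gabpb1 cross blastocysts against morulae; none passed an adjusted p of 0.05.

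Stage was compared among non-KO embryos of the same cross and the same hours of culture. At equal hours a morula may be an embryo that developed more slowly. Slower development, or another mix of heterozygous and WT embryos, cannot be told apart from stage in either cross. For the Alyref embryos 0 of 8 members were called, where the test called 13.0% of all genes. The nearest was Dhcr7, at 44.7, 35.6 and 34.9 CPM in blastocysts and 19.4, 20.6 and 25.2 CPM in morulae. The groups did not overlap, and the log2 difference was 0.82 (SE 0.27, adjusted p 0.056). Dhcr7 was the 1 gene of 8 without overlap. Over all 18410 genes tested, blastocysts lay wholly higher for 3616 and wholly lower for 3540. DESeq2 called Dhcr7 with an adjusted p of 0.02 and limma voom with sample weights with 0.00734. The quasi-likelihood test without non-KO morula 3 also called it (adjusted p 0.0389). Of all 18410 genes DESeq2 called 1786 higher and 1976 lower, limma voom 3623 and 3639, and the fit without that morula 2193 and 2367. Cyp51, the lanosterol demethylase, had 50.1, 14.3 and 4.27 CPM in blastocysts and 3.58, 11.3 and 3.30 CPM in morulae. These groups overlapped, and the log2 difference was 1.93 (SE 0.87, adjusted p 0.144). It was 0.63 without blastocyst 1 and 2.77 without morula 2. Both genes passed an unadjusted p of 0.05, 2 of 8, against 31.1% of all genes. Fdft1 was lower on average in blastocysts, by -1.11 (SE 0.71), and that estimate was 0.094 without non-KO morula 2 and -1.99 without blastocyst 1. The other 5 ran from -0.23 for Fdps to 0.82 for Hmgcs1. Trophectoderm markers summed to 344 to 1132 FPKM in these morulae and 2540 to 4224 FPKM in the blastocysts. Inner cell mass and epiblast markers went the other way, at 215 to 296 FPKM in morulae and 123 to 153 FPKM in blastocysts. Primitive endoderm markers overlapped, at 40.0 to 49.5 and 33.2 to 43.2 FPKM. The part of these markers in the results of this comparison was not tested.

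In the Gabpb1 cross all 8 estimates were higher in blastocysts, as were 51.6% of those of all genes, with a median log2 difference of 1.49 against 0.020 over all genes tested. None was called, and the test called 0% of all genes here: edgeR called 0 of 8, as did DESeq2 and limma voom. Of all genes DESeq2 called 12 higher and 45 lower, and limma voom 1 and 23. Hmgcs1 had 86.2, 46.4 and 73.7 CPM in blastocysts and 19.1 and 34.3 CPM in morulae. There was no overlap, and the log2 difference was 1.36 (SE 0.45, unadjusted p 0.00826, adjusted p 0.559). Idi1 had 101.7, 37.5 and 70.7 CPM against 19.5 and 28.4 CPM, a difference of 1.55 (SE 0.64, adjusted p 0.67). Fdps had 133.8, 70.6 and 70.8 CPM against 17.9 and 36.3 CPM, a difference of 1.76 (SE 0.63, adjusted p 0.604). Each lowest blastocyst lay above the highest morula. Sqle showed the largest estimate, 1.79 (SE 0.89), from 86.9, 33.3 and 92.4 CPM against 20.3 and 20.7 CPM. Lss and Cyp51 were the 2 genes that overlapped, in each case because blastocyst 2 lay below the higher morula, at 10.3 CPM for Lss and 9.59 CPM for Cyp51. The remaining genes, Fdft1 and Dhcr7, differed by 0.98 (SE 0.81) and 0.80 (SE 0.31). Groups did not overlap, blastocysts higher, for 6 of 8 genes and for 11.4% of all genes, and 5 of 8 passed an unadjusted p of 0.05 against 6.72% of all genes. The 8 genes vary together between embryos, as described below, so these counts are not 8 separate observations. Scaled to spike-in RNA, which moved the median of all genes to -0.86 in this comparison, 7 of the 8 stayed above 0 and Dhcr7 came to -0.066. Trophectoderm markers also differed here, at 1556 to 2465 FPKM in morulae and 2644 to 3063 FPKM in blastocysts. Inner cell mass and epiblast markers overlapped, at 87.8 to 168 FPKM in morulae and 139 to 231 FPKM in blastocysts. Primitive endoderm markers did too, at 32.9 to 39.0 and 37.9 to 51.9 FPKM. The part of these markers in the result was not tested.

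The contrast of the 2 stage differences passed the threshold for none of the 8 genes (0 of 8 called by edgeR, DESeq2 and limma voom). Of all genes edgeR called 0.00543%, DESeq2 164 higher and 172 lower, and limma voom 360 and 776. At an unadjusted p under 0.05 the edgeR contrast passed 1 of 8, against 13.8% of all genes. This was Fdps, with 1.99 (SE 0.81, p 0.0264, adjusted p 0.316). When non-KO morulae were compared across the crosses, 0 of 8 genes were called by any of the 3 tools, where edgeR called 1.86% of all genes. Fdps was the 1 gene of 8 at an unadjusted p under 0.05, which 22.4% of all genes passed, with 17.9 and 36.3 CPM in the Gabpb1 cross against 57.9, 122.5 and 50.5 CPM in the Alyref cross and a log2 difference of -1.50 (SE 0.62, adjusted p 0.174). Idi1, Fdps and Lss, 3 of 8, did not overlap between those morulae, beside 36.1% of all genes. Against WT blastocysts, those of the Alyref cross differed by -0.58 to 0.30 and those of the Gabpb1 cross by 0.075 to 0.59. No member was called in either by edgeR, DESeq2 or limma voom, and edgeR called 0% of all genes in each. DESeq2 called 4 genes higher and 11 lower for the Alyref cross, and 26 and 16 for the Gabpb1 cross. With limma voom these counts were 9 and 32, and 2 and 8. In edgeR an unadjusted p of 0.05 was passed by 0 of 8 in both, against 2.94% and 6.10% of all genes. All members' groups overlapped, where 12.2% and 12.8% of all genes did not. The 3 WT blastocysts serve both comparisons. The stage and KO comparisons of a cross likewise share its non-KO morulae.

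Embryos of 1 group differed from one another in 7 of the 8 genes by more than in most genes tested. The SD of log2 values within groups was 1.14 for Cyp51, 1.03 for Sqle and 0.97 for Fdft1, against a median of 0.371 over all genes tested, and 98.3%, 97.4% and 96.7% of tested genes had a lower SD. Idi1 and Fdps stood above 89.9% and 87.9% of genes, Lss above 78.8% and Hmgcs1 above 69.3%. Dhcr7, with an SD of 0.316, stood above 38.9%. In blastocysts the genes went up and down together. Over the 9 blastocysts the 28 pairs of genes had a median Pearson r of 0.784 and a median Spearman rho of 0.80, and 28 of 28 were above 0, the lowest at 0.418. Leaving out any 1 blastocyst gave a median r of 0.745 to 0.878. The same r was not computed for pairs of other genes, so it is not shown to be particular to these 8. All 8 genes were above their median over the embryos in 4 of 9 blastocysts, which were blastocyst 1 of the Alyref cross, blastocysts 1 and 3 of the Gabpb1 cross and blastocyst 2 of the WT group, so high embryos were found in each of the 3 groups.

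In WT blastocysts 1, 2 and 3, for example, Cyp51 had 7.50, 65.6 and 30.2 CPM and Sqle 15.7, 94.0 and 52.0 CPM. Fdft1 followed the same order at 37.3, 188.1 and 99.6 CPM, and so did Fdps at 30.3, 83.1 and 79.2 CPM. Idi1 and Lss had that order as well. Dhcr7 did not, at 35.6, 44.5 and 23.8 CPM, nor did Hmgcs1, at 45.4, 87.8 and 40.9 CPM. Blastocyst 2 was the highest of the 3 for all 8 genes, and the lowest was blastocyst 3 for Dhcr7 and Hmgcs1 and blastocyst 1 for the other 6. Over the 10 morulae the 28 pairs had a median r of 0.159 and a median rho of 0.036, 16 were above 0 and the lowest was -0.624. Whether the pairs differ between stages was not tested. Over all 19 embryos, with group means removed, the median r was 0.585 and 28 of 28 pairs were above 0. Without removing group means it was 0.491, and 0.336 without the 2 embryos farthest from the median, Gabpb1 cross blastocyst 1 and Alyref cross blastocyst 1. These are descriptions, and the points of a pair share library, depth and spike-in amount. The mean over the 8 genes correlated with log2 depth at 0.285 (0.478 within groups), with the log2 spike-in share at 0.513 (0.336 within groups) and with summed trophectoderm markers at 0.299 (-0.112 within groups), and the part of each was not tested.

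**Figure D3:**
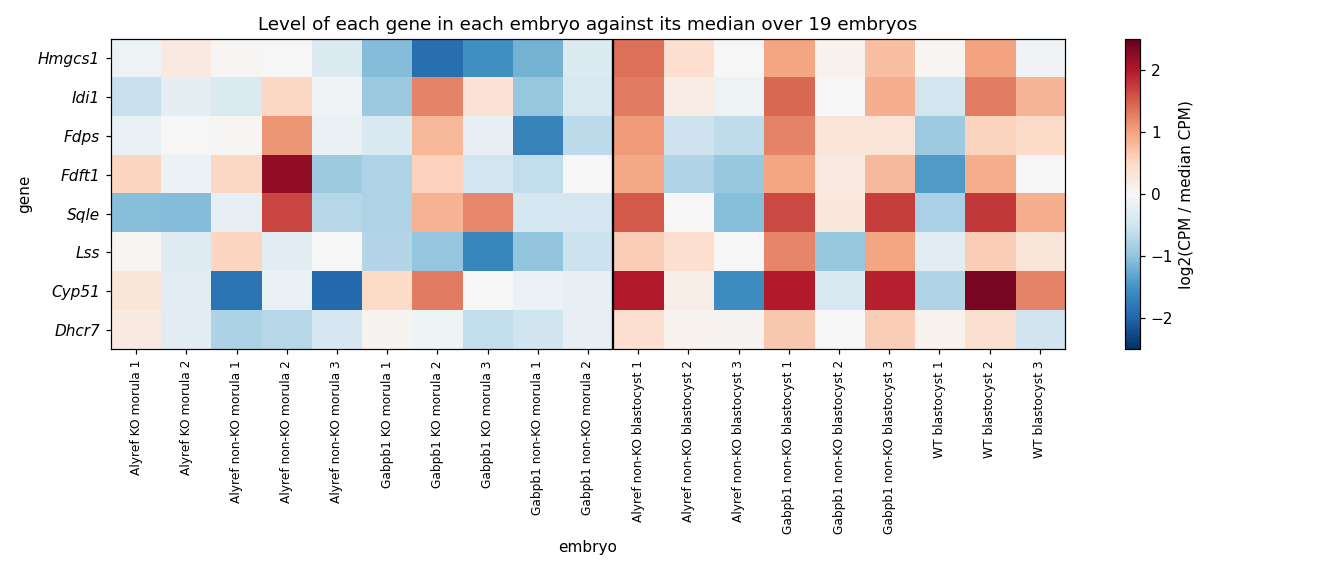
Log2 of CPM over the gene's median across 19 embryos (colour; red higher, blue lower) for the 8 genes (rows) in each embryo (columns); a black line parts morulae from blastocysts. In 4 of 9 blastocysts all 8 genes are above their median, while in the 2 non-KO morulae of the Gabpb1 cross none is above it and the other morula columns mix colours; Cyp51 reaches 2.37 in WT blastocyst 2.

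The other genes of the pathway were taken from lists of 12 further synthesis enzymes, 7 SREBP regulators, 10 genes of uptake, transport, storage and efflux and 7 of fatty acid synthesis, of which 12, 7, 6 and 6 passed the filter. Among regulators Insig2 rose in Alyref KO morulae. It had 17.0 and 27.2 CPM there and 6.79, 3.71 and 6.28 CPM in non-KO morulae, without overlap, and the log2 difference was 1.98 (SE 0.37, adjusted p 0.0404). In the Gabpb1 cross it lay the other way, at 6.46, 5.65 and 6.81 CPM in labelled KO and 18.8 and 16.3 CPM in non-KO morulae, with -1.47 (SE 0.37, adjusted p 0.0518), which missed the threshold, while DESeq2 called it (adjusted p 0.00519). The difference between those effects passed it, at -3.45 (SE 0.52, adjusted p 0.0112). The non-KO morulae themselves differed, by 1.64 between the crosses (adjusted p 0.0392), with the Gabpb1 cross higher, a call lost in 4 of 5 fits that left out 1 embryo (adjusted p up to 0.209). In the Alyref cross Insig2 was also higher in blastocysts than in non-KO morulae, by 1.67 (SE 0.34, adjusted p 0.0104), a call lost without non-KO morula 2 (adjusted p 0.051). The Alyref KO call was lost when KO morula 1 or 2 or non-KO morula 1 or 2 was left out (adjusted p 0.0733 to 0.373), and the test of the difference when KO morula 2 was (0.0551). The Alyref KO call was also lost with spike-in scaling (adjusted p 1), with no filter on low values (0.0744), with a replicate block (0.078) and with the compared groups fitted alone (0.559), while DESeq2 and limma voom made it. The test of the difference was lost with spike-in scaling (adjusted p 0.385) and with the compared groups alone (0.178).

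Acly, which makes cytosolic acetyl-CoA, was the 1 other list gene called in a KO comparison. It rose in morulae labelled Gabpb1 KO, with 65.8, 62.1 and 84.3 CPM against 31.7 and 29.7 CPM, without overlap, and a log2 difference of 1.20 (SE 0.28, adjusted p 0.045). In Alyref KO morulae it had 30.2 and 30.3 CPM against 35.5, 48.4 and 53.0 CPM, a difference of -0.59 (SE 0.28, adjusted p 0.403). The difference between the effects passed the test, at 1.80 (SE 0.39, adjusted p 0.0412). Summed trophectoderm markers stood at 1508, 175 and 574 FPKM in the morulae labelled Gabpb1 KO and at 2465 and 1557 FPKM in their non-KO siblings, without overlap. They stood at 858 and 345 FPKM in Alyref KO morulae and at 344 to 1132 FPKM in non-KO ones, and their part in the Acly and Insig2 results was not tested. The Gabpb1 call was lost without KO morula 2 or 3 or either non-KO morula (adjusted p 0.074 to 0.297). The test of the difference was lost in 8 of 10 fits that left out 1 morula (highest adjusted p 0.172). Both were lost too with spike-in scaling (adjusted p 0.76 and 0.964), with no filter on low values (0.0878 and 0.0876), with a replicate block (0.0657 and 0.0827) and with the compared groups alone (0.321 and 0.293).

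**Figure D4:**
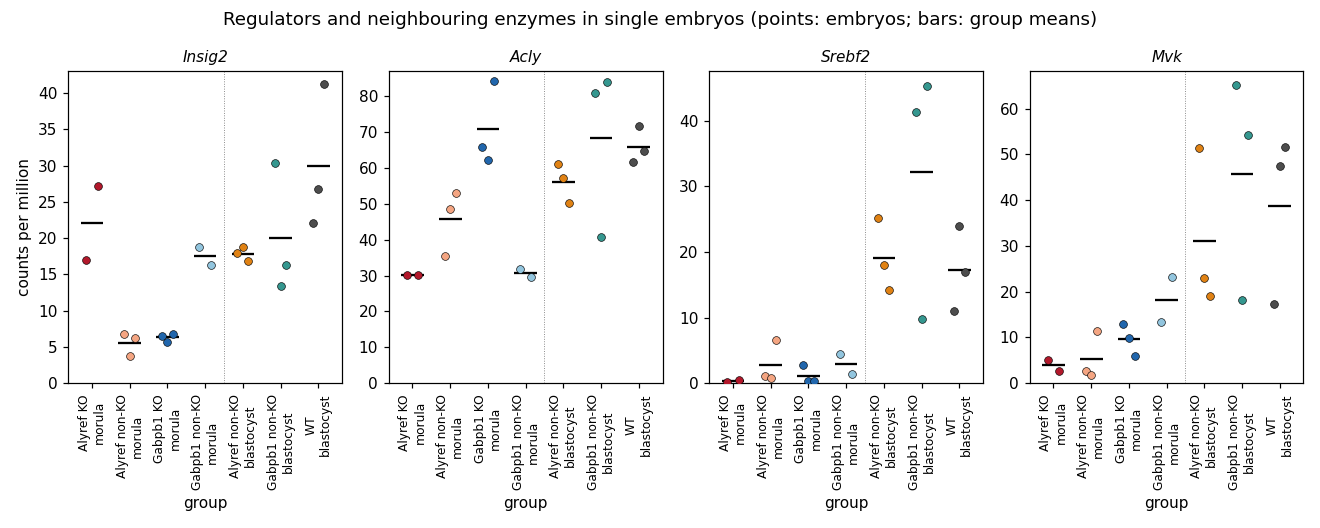
CPM (y axis, linear from 0) of Insig2, Acly, Srebf2 and Mvk in the 7 groups (x axis); points are embryos and bars group means. Insig2 is at 17.0 and 27.2 CPM in Alyref KO morulae and at 5.65 to 6.81 CPM in morulae labelled Gabpb1 KO. Srebf2 stays at or under 6.54 CPM in morulae, KO and non-KO together. It is at or above 9.71 CPM in blastocysts, none of them labelled KO.

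Of the other regulators edgeR called none in a KO comparison. Srebf2, the SREBP gene of cholesterol synthesis, was at 0.132 and 0.467 CPM in Alyref KO morulae and at 1.09, 0.843 and 6.54 CPM in their siblings, a difference of -3.05 (SE 1.23, adjusted p 0.32). At these levels it was carried by few reads. In blastocysts it stood higher in every embryo than in any morula, at 9.71 to 45.4 CPM against 0.132 to 6.54 CPM. These morulae include those labelled KO, while no blastocyst was labelled KO, so label and stage are mixed in these ranges. The share of all genes that part in this way was not computed. The stage difference was 2.76 in the Alyref cross (SE 0.88, adjusted p 0.0507) and 3.44 in the Gabpb1 cross (SE 1.07, adjusted p 0.535), neither past the threshold. In the Alyref cross 6 of 14 alternatives called Srebf2 (lowest adjusted p 0.00059, with limma voom), and its estimate was 4.29 without non-KO morula 3. The highest estimate of a regulator in morulae labelled Gabpb1 KO was that of Scap, 0.57 (adjusted p 0.395). Mbtps2, a protease that frees SREBP, fell in blastocysts of the Alyref cross by 1.30 on the log2 scale (adjusted p 0.0386), a call that was lost in 5 of 6 fits leaving out 1 embryo. It also had the lowest stage estimate of the regulators in the Gabpb1 cross, -0.58 (adjusted p 0.836). With Insig2, 2 of 7 regulators were called for stage in the Alyref cross, where 13.0% of all genes were.

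Of the 12 further enzymes 2 rose with stage in the Alyref cross and none fell, in the comparison that called 13.0% of all genes. Mvk, mevalonate kinase, had 51.3, 23.1 and 19.1 CPM in blastocysts and 2.66, 1.77 and 11.5 CPM in morulae, a difference of 2.55 (SE 0.69, adjusted p 0.0282). Pmvk, the next kinase, had 99.7, 73.4 and 83.7 CPM against 39.7, 33.9 and 46.3 CPM, a difference of 1.10 (SE 0.31, adjusted p 0.0316). In neither did the groups overlap, and blastocysts lay wholly higher for 7 of the 12 enzymes and for 3616 of 18410 genes tested. Leaving out 1 embryo ended the call in 4 of 6 fits for Mvk (adjusted p up to 0.114) and in 5 of 6 for Pmvk (up to 0.115). Nsdhl, a sterol dehydrogenase, had the highest stage estimate there, 2.78 (SE 0.91, adjusted p 0.0533), and edgeR did not call it, but 6 of 14 alternatives did (lowest adjusted p 0.00484, with DESeq2). Ggps1, a prenyl synthase, had the lowest, -0.014. In the Gabpb1 cross the extremes with stage were Mvd at 1.39 (adjusted p 0.717) and Sc5d at -0.061. In KO comparisons edgeR called 0 of 12 in either cross, with Nsdhl at 1.07 and Pmvk at -0.87 as the extremes in the Alyref cross and Msmo1 at 1.13 and Mvk at -0.93 in the Gabpb1 cross. The Nsdhl estimate was -1.22 without Alyref KO morula 1.

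Of the 6 tested genes of uptake, transport, storage and efflux edgeR called none in any comparison, and limma voom called Abca1 in the Alyref stage difference (adjusted p 0.038). Stard4, a sterol carrier, gave the lowest estimate in the Alyref KO comparison, -1.27 (SE 0.43, adjusted p 0.222), and Scarb1, a lipoprotein receptor, in the Gabpb1 one, -1.02 (SE 0.47, adjusted p 0.254). Abca1, which exports cholesterol, gave the highest estimate in each, 0.58 and 0.99. Its stage difference in the Gabpb1 cross was -2.31 (SE 0.69, adjusted p 0.528), the lowest of the list, and Stard4 had the highest, 0.62. With stage in the Alyref cross the extremes were Scarb1 at 0.79 (adjusted p 0.224) and Abca1 at -0.72 (adjusted p 0.439). For fatty acid synthesis, Scd2, a desaturase, fell with stage in the Alyref cross by 1.39 on the log2 scale (SE 0.33, adjusted p 0.0171), from 66.3, 89.2 and 185.2 CPM in morulae to 54.4, 28.5 and 46.9 CPM in blastocysts. Without blastocyst 2 its adjusted p was 0.0805, and without morula 3 the estimate was -0.84. It was the 1 gene called of 6, beside 13.0% of all genes. Acss2, an acetyl-CoA synthetase, had the highest stage estimate there, 0.65 (adjusted p 0.378), and 1 of 13 alternatives called it (adjusted p 0.047, without non-KO morula 3). In the Gabpb1 cross the extremes with stage were Acly at 1.16 (adjusted p 0.399), which DESeq2 called (0.0271), and Scd2 at -0.25. Elovl6, an elongase, gave the lowest estimate in Alyref KO morulae, -0.69 (adjusted p 0.395), and Scd1 the highest, -0.0073. Fasn gave the highest estimate in morulae labelled Gabpb1 KO, 1.28 (SE 0.66, adjusted p 0.311), and Acss2 the lowest, -0.52 (adjusted p 0.633).

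Genes whose level over the 19 embryos was most like the mean of the 8 were ranked by Pearson r among tested genes with a mean FPKM of 5 or more. The leading 5 were Gm13502 at 0.828, Mvd at 0.827, Gm5873 at 0.827, Gm3571 at 0.821 and Gm43738 at 0.80, and all but Mvd share sequence with or overlap Idi1 or Fdps. With such genes left out, 8356 candidates remained. Mvd led with r 0.827 (rho 0.642), followed by Msmo1 at 0.799 (rho 0.849), Rbms2 at 0.726 (rho 0.665), Insig1 at 0.724 (rho 0.686) and Acat2 at 0.698 (rho 0.60). Mvd and Acat2 act in the steps before squalene and Msmo1, like Cyp51, in the steps after lanosterol. Insig1 is itself a regulator of SREBP, and Rbms2 encodes an RNA-binding protein. Without the 2 farthest embryos these r were 0.723, 0.743, 0.661, 0.684 and 0.509.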

How the data were processed

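PolyA RNA of 19 single embryos was sequenced after 16 PCR cycles as read pairs of 50 and 25 bases, per the labels' protocols. The authors deposited 1 table whose values are whole-number counts per gene, although its name says FPKM; the test written for counts was therefore used. The submitters' processing notes name Trimmomatic, Trim Galore, cutadapt, STAR, featureCounts and mm10. Their settings and the annotation are not given in the sources used here. Of 53379 gene rows, 50604 match GENCODE M21 in identifier, start and end, the 8 members included; 92 ERCC rows stayed out of library sizes.

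CPM and FPKM were computed from the counts with TMM-scaled library sizes. A gene was tested if FPKM was 1 or more in at least 2 embryos (18410 of the 39262 that had a count). The fit by edgeR 4.0.16 in R 4.3.3 gave 1 mean per group over all 19 embryos, and its quasi-likelihood test was used with Benjamini-Hochberg adjustment; a gene is called at an adjusted p under 0.05. SE is the log2 fold change over the square root of F. Alternatives were DESeq2 1.42.0, limma 3.58.1 (voom with sample weights), other scalings and filters, a replicate block, the compared groups alone and leaving out each embryo. The method was tested on simulated data. Copies were sought with blastn 2.17.0.

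The members are fixed by gene symbol alone, but they, the lists and the markers were chosen with earlier results of these data known. Named are all members, every called list gene, the largest rise and fall of each list in the KO and stage comparisons, and the 5 genes most like the members' mean, by Pearson r on log2(CPM + 1). The alternative that leaves out sequence-sharing genes, the correlations by stage and the alternatives for list genes were added after seeing the data. Depth was 7486000 to 31536000 gene counts. Nothing in the labels says whether embryos of a group came from separate fertilisations, so p-values measure the spread between these embryos. Same-numbered embryos of compared groups were checked for pairing and did not deviate together (r -0.156 to 0.169).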

Additional observations from a re-analysis of the deposited data

Results flagged for a closer look

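Among the members, the list genes, Alyref and Gabpb1, the effect of the KO label differed between the crosses for 3 genes. The test was the contrast of the 2 effects, by edgeR's quasi-likelihood test with Benjamini-Hochberg adjustment. It called 167 of 18410 genes tested, or 0.907%. Insig2 differed by -3.45 on the log2 scale (Gabpb1 effect minus Alyref effect), higher in 2 of 2 Alyref KO morulae than in every sibling and lower in 3 of 3 morulae labelled Gabpb1 KO. Acly differed by 1.80, lower in 2 of 2 Alyref KO morulae and higher in 3 of 3 labelled Gabpb1 KO. Alyref itself differed by 1.77, being the gene deleted in 1 of the crosses. Non-KO morulae of the 2 crosses also did not overlap in Insig2 and Acly, nor in 36.1% of all genes. Mean Insig2 was 5.59 CPM in the Alyref cross and 17.5 CPM in the Gabpb1 cross, and mean Acly 45.6 and 30.7 CPM. In that comparison edgeR called Insig2 (adjusted p 0.0392). It called no gene of the fatty acid list, which holds Acly (lowest adjusted p 0.231). The part of these differences between non-KO morulae in the results above was not tested. None of the 8 cholesterol synthesis genes met this test. No group holds more than 3 embryos, so single embryos were not tested as outliers.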

How the results depend on the processing

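The number of members called stayed at 0 in all 9 comparisons under the alternatives run, except in the Alyref stage difference, where it was 1 (Dhcr7) with DESeq2, with limma voom, with the filter at an FPKM of 5 and without non-KO morula 3; leaving out 1 embryo it ran from 0 to 1. Over the same alternatives the number of all genes called varied by far more than 1.5 times: 42 (0 to 841) for the Alyref KO effect, 303 (0 to 1284) for the Gabpb1 KO effect, 167 (0 to 894) for the difference between KO effects, 2402 (24 to 7262) for the Alyref stage difference, 0 (0 to 57) for the Gabpb1 stage difference, 1 (0 to 1136) for the difference between stage differences, 342 (0 to 2712) for non-KO morulae between crosses, 0 (0 to 41) for Alyref cross blastocysts against WT and 0 (0 to 42) for Gabpb1 cross blastocysts against WT. With the replicate number as a block, 8 genes were called for the Alyref KO effect (2 higher and 6 lower) and 266 for the Gabpb1 one, and 0 of 8 members in every comparison. Nothing in the labels says that same-numbered embryos belong together. Of 1039 fold changes of members recomputed, 970 kept sign and side of the threshold, 4 passed it and 65 changed sign; of 516 of list genes, 410 were kept, 65 lost the call, 18 gained one and 23 changed sign. The 5 list-gene calls of the Alyref stage difference and that of Insig2 between crosses ended with spike-in scaling and with the compared groups alone, and the Mbtps2 call also with no filter and with the block. Spike-in scaling moved the median of all genes to -0.40 in the Gabpb1 KO effect, -0.33 in the difference between KO effects, -0.34 in the Alyref stage difference, -0.86 in the Gabpb1 one, -0.53 in their difference, 0.39 between non-KO morulae and 0.15 for Alyref cross blastocysts against WT. It turned calls of 64 higher and 239 lower into 0 and 26 for the Gabpb1 KO effect, 66 and 101 into 0 and 10 for the difference between KO effects, 1035 and 1367 into 31 and 321 for the Alyref stage difference, and 218 and 124 into 2 and 0 between non-KO morulae. None of the estimates that changed sign was called in the fit reported, and the causes were not tested. Under scaling to spike-in counts, the sign turned for Fdft1 in the Gabpb1 KO effect (-0.61), Dhcr7 in the Gabpb1 KO effect (-0.24), Fdft1 in the difference between KO effects (-0.25), Sqle in the Alyref stage difference (0.0021), Lss in the Alyref stage difference (-0.15), Dhcr7 in the Gabpb1 stage difference (-0.066) and Stard4 in the Gabpb1 stage difference (-0.24). With limma voom, the sign turned for Scd1 in the Alyref KO effect (0.43), Lss in the difference between KO effects (0.029), Sqle in the Alyref stage difference (0.24), Lss in the Alyref stage difference (-0.034), Sc5d in the Gabpb1 stage difference (0.19), Fdps in Alyref cross blastocysts against WT (-0.34) and Lss in Alyref cross blastocysts against WT (-0.028). With the replicate number as a block, the sign turned for Scd1 in the Alyref KO effect (0.036), Cyp51 in the difference between KO effects (0.067), Sqle in the Alyref stage difference (0.083), Ggps1 in the Alyref stage difference (0.0030), Sc5d in the Gabpb1 stage difference (0.055), Cyp51 in the difference between stage differences (0.21) and Dhcr7 in the difference between stage differences (0.046). With no filter on low values, the sign turned for Sqle in the Alyref stage difference (0.0050) and Ggps1 in the Alyref stage difference (0.051). With the filter at an FPKM of 5, the sign turned for Scd1 in the Alyref KO effect (0.033) and Ggps1 in the Alyref stage difference (0.025). With the compared groups alone, the sign turned for Ggps1 in the Alyref stage difference (0.025). With DESeq2, the sign turned for Scd1 in the Alyref KO effect (0.0053). With RLE size factors, the sign turned for Scd1 in the Alyref KO effect (0.0051). Leaving out 1 embryo at a time, log2 fold changes that took both signs ran as follows. For the Alyref KO effect, Nsdhl -1.22 to 1.98, Hmgcs1 -0.039 to 0.33, Scd1 -0.27 to 0.58 and Fdft1 -1.36 to 0.29. For the Gabpb1 KO effect, Fdft1 -0.36 to 0.50. For the difference between KO effects, Lss -0.31 to 0.18, Cyp51 -1.12 to 0.038 and Fdft1 -0.16 to 1.53. For the Alyref stage difference, Ggps1 -0.19 to 0.21, Abca1 -1.14 to 0.21, Fdps -1.01 to 0.30, Fdft1 -1.99 to 0.094, Sqle -1.06 to 1.00 and Idi1 -0.030 to 0.84. For the Gabpb1 stage difference, Sc5d -0.54 to 0.66 and Mbtps2 -1.11 to 0.25. For the difference between stage differences, Dhcr7 -0.17 to 0.13 and Cyp51 -1.08 to 1.05. For non-KO morulae between crosses, Sqle -1.45 to 0.040. For Alyref cross blastocysts against WT, Hmgcs1 -0.20 to 0.73, Fdps -0.75 to 0.31, Lss -0.10 to 0.33, Idi1 -0.68 to 0.26, Fdft1 -0.96 to 0.58, Sqle -1.39 to 0.26, Cyp51 -1.88 to 0.29 and Dhcr7 -0.059 to 0.37. For Gabpb1 cross blastocysts against WT, Idi1 -0.19 to 0.57, Cyp51 -0.40 to 0.94 and Sqle -0.042 to 1.06. With 2 or 3 embryos a group, a single embryo can set a group mean, and adjusted p-values depend on how many other genes pass.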
